A study of Mus musculus with 72 samples.

Results

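Livers of mice fed QH2, the reduced form of coenzyme Q10, were compared with livers of mice fed Q10, the oxidised form, after 14 months on the diets. The arrays were chosen by their labels for tissue, diet and duration, which gave 3 QH2 livers and 3 Q10 livers, 6 of the 72 arrays of a study that also covered kidney, heart and brain. Liver was measured on 18 arrays, and the 3 livers of mice on control diet for 14 months are given beside the 6 compared. The mice were female SAMP1 animals, a senescence accelerated prone strain, so the control mice carry that background too. They started on the diets at 4 weeks of age and were about 15 months old at the end. QH2 and Q10 were both taken in at 500 mg per kg body weight a day, a dose derived from mean food intake and mean body weight, and control mice ate a control diet. Each array is taken as 1 mouse, because the design text gives 3 mice for each group. The animals stayed in unchanged groups of 3 to 6 per cage, so cage and diet may coincide and cannot be told apart.

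Coenzyme Q is the lipid-soluble carrier that takes electrons from complex I, complex II and several dehydrogenases of the inner mitochondrial membrane to complex III, moving between an oxidised form, ubiquinone, and a reduced form, ubiquinol, which is also an antioxidant. Its isoprenoid tail comes from the mevalonate pathway, which feeds cholesterol synthesis as well. Hepatocytes carry out most of the sterol, bile acid, drug and amino acid metabolism of the liver, and Kupffer cells are the macrophages that reside in its sinusoids.

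Total RNA was labelled and hybridised to Affymetrix mouse expression arrays, and the deposited linear signals were quantile normalised across the 18 liver arrays. Fold changes are log2 of QH2 over Q10 with limma's moderated standard error (n = 3 livers per diet), so that a positive value is higher on QH2, and a probe set was called when its adjusted p was under 0.05. The spread in that error was pooled over all 18 liver arrays in their 6 groups. Of 27022 probe sets tested, 2632 were called, or 9.74%: 1300 were higher on QH2, or 4.81%, and 1332 were lower, or 4.93%. At an unadjusted p under 0.05 there were 6742. The split depended on how the arrays were brought to a common level. With the signals as deposited 1067 probe sets were called, 37 higher and 1030 lower on QH2, and with the arrays scaled to 1 common 75th percentile 4310 were called, 3125 higher and 1185 lower. The median log2 fold change of all probe sets was 0.08 after quantile normalisation, -0.40 as deposited and 0.17 with the common percentile, and changes of gene lists are read against it. The groups did not overlap for 3990 probe sets higher on QH2, or 14.8%, and for 2996 lower on QH2, or 11.1%. A typical probe set had a 95% interval of 0.69 to either side of its log2 fold change.

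Arrays 2 and 3 of the Q10 group stood apart from array 1 and from every other liver array at 14 months. The labels give nothing on the health of single mice, and what sets these 2 livers apart was not tested. The median standard deviation of a probe set within a group, on the log2 scale, was 0.26 on QH2, 0.39 on Q10 and 0.24 on control diet. Over the pan-leukocyte list, of genes that leukocytes share, it was 0.44 on QH2, 1.32 on Q10 and 0.43 on control diet. The pooled standard errors do not show this wider spread of the Q10 livers. Without Q10 arrays 2 and 3 only 12 probe sets were called, and leaving out a single array gave between 766 (without Q10 array 2) and 5905 calls (without Q10 array 1). Leaving out Q10 array 3 gave 935 calls, and leaving out QH2 arrays 1, 2 and 3 in turn gave 1056, 1737 and 836. limma on the 6 arrays alone, without the spread of the other 4 groups, called 0 probe sets (smallest adjusted p = 0.0779), with 5293 at an unadjusted p under 0.05. A measure of RNA integrity also separated the groups. The ratio of the 3' to the 5' control probe set of Actb, which grows as RNA or its labelled copy gets shorter, was 7.36, 3.67 and 5.01 on QH2, 3.05, 1.59 and 1.98 on Q10 and 3.49, 3.88 and 4.11 on control diet. The QH2 and Q10 ratios did not overlap, so this ratio and the diet cannot be told apart here. With the ratio as a covariate 0 probe sets were called by limma (smallest adjusted p = 0.424), and 1204 had an unadjusted p under 0.05. With the covariate the median log2 fold change was -0.90 for the pan-leukocyte, -1.602 for the macrophage and -0.87 for the interferon list, and 0.30 for cholesterol synthesis, 0.04 for the P450 list, 0.07 for the urea cycle list and 0.08 for complex I.

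The arrays carried the liver markers at high level. Alb, which encodes albumin, had a normalised signal of 11042, 11282 and 11282 on QH2, 11042, 11282 and 11282 on Q10 and 10713, 11723 and 11042 on control diet. Apoa1, the main apolipoprotein of high density lipoprotein, was the brightest probe set on all 9 arrays and therefore had the same normalised signal, 14446, on each. Hnf4a, a transcription factor that defines hepatocytes, had 1288, 1636 and 1297 on QH2, 1679, 1000 and 1435 on Q10 and 1593, 1736 and 1722 on control diet, with overlapping groups (log2 0.06 ± 0.16, adjusted p = 0.87). Quantile normalisation also leaves little room for a difference in a gene as bright as Alb. With the common percentile the log2 fold change was 0.53 for Alb and 0.63 for Hnf4a, beside 0.17 for all probe sets. As deposited it was -0.05 and 0.05, beside -0.40. Leukocyte genes were read on the same bulk RNA, in which fewer cells of a type and less RNA per cell cannot be told apart.

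**Figure D1:**
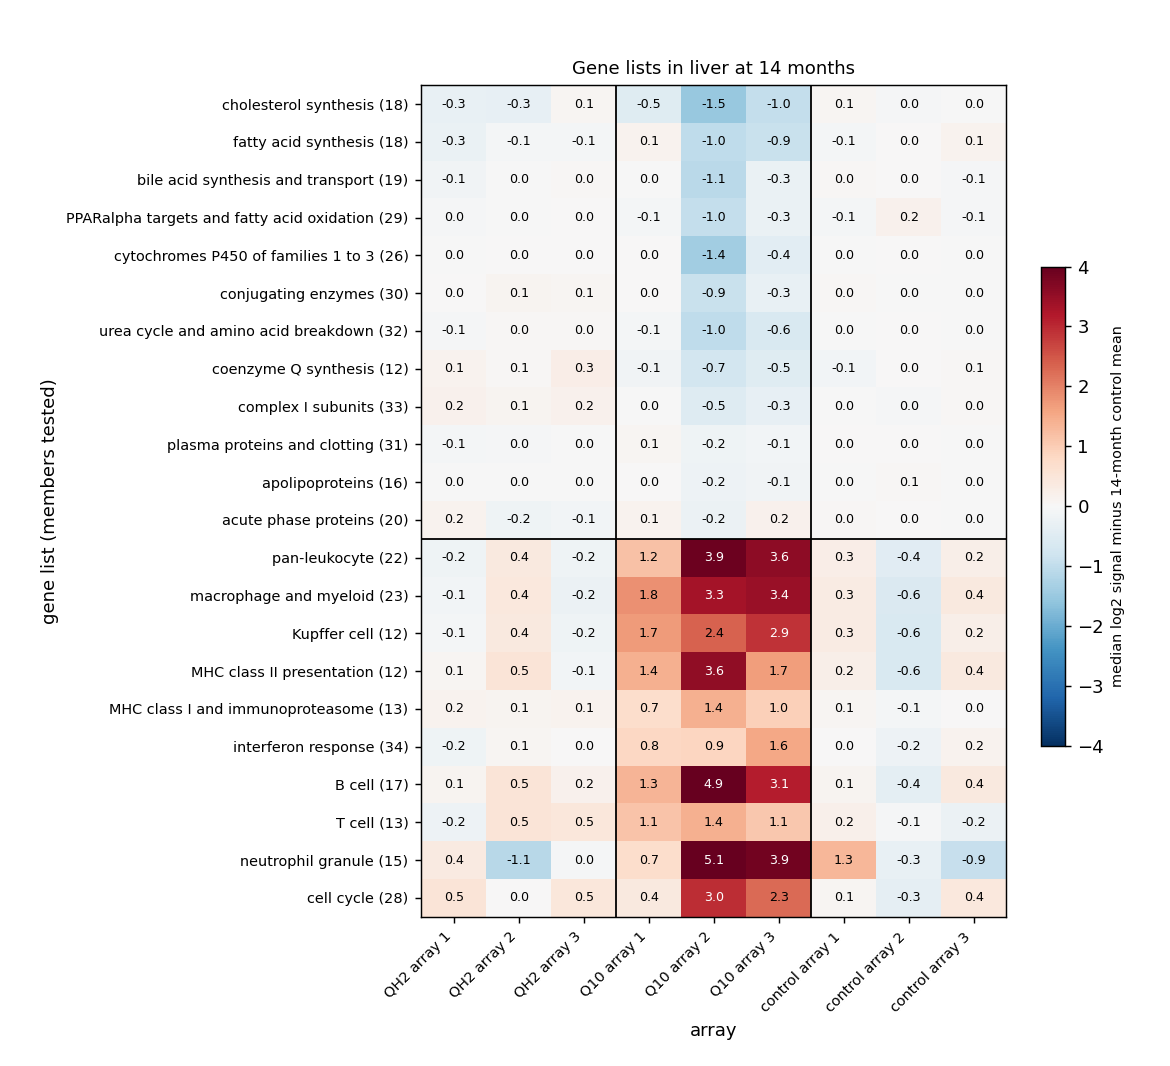
Median log2 signal of each gene list on each liver array at 14 months, minus the mean of the 3 control livers (colour and printed value, log2 units). Rows are gene lists with the number of members tested, metabolic and hepatocyte lists above the horizontal line and leukocyte and cell cycle lists under it. Columns are the QH2, Q10 and control arrays. Q10 arrays 2 and 3 have the deepest colours, for example 3.93 and 3.57 for the pan-leukocyte list, against 1.17 in Q10 array 1.

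Genes that leukocytes share were lower on QH2 than on Q10. Of 22 tested members of the pan-leukocyte list 21 were called, every one lower on QH2, where 4.93% of all probe sets were. Counted over genes with 1 probe set each, 6.33% of 12775 were called lower and 6.76% higher. The filter on low signals took the mean of all 18 liver arrays, so a gene bright on Q10 alone could pass it. Ptpn22, a member called here, did so. Of the listed genes 22 of 23 were tested here, but fewer in other leukocyte lists, for example 13 of 24 for T cells. The pan-leukocyte list's median log2 fold change was -2.69, and it was -3.07 with the signals as deposited and -2.50 with the common percentile. Ptprc, the leukocyte common antigen CD45, had a signal of 57.1, 107 and 78.6 on QH2, 214, 1232 and 1322 on Q10 and 103, 66.8 and 106 on control diet. The Q10 livers were all above the QH2 livers, and arrays 2 and 3 were far above array 1 (log2 -3.15 ± 0.48, adjusted p = 0.00104). The other tested Ptprc probe set was not called. Cd53, a membrane protein of leukocytes, had 35.99, 53.2 and 35.9 on QH2, 147, 578 and 674 on Q10 and 39.6, 30.7 and 50.3 on control diet (log2 -3.20 ± 0.43, adjusted p = 0.000403). Itgb2, the beta 2 integrin chain that leukocytes use to adhere, had 15.5, 47.6 and 20.9 on QH2, 121, 728 and 1164 on Q10 and 38.4, 20.1 and 39.4 on control diet (log2 -4.17 ± 0.60, adjusted p = 0.000743). The summed signal of the whole list was 852, 1121 and 865 on QH2, 2191, 15047 and 10151 on Q10 and 1109.6, 743 and 1077 on control diet. The QH2 and control sums overlapped, and the lowest Q10 sum, that of array 1, was above all of them and far under the sums of Q10 arrays 2 and 3.

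Members of the pan-leukocyte list were called in the same direction in all 6 fits that left out 1 array for 15 of the 21. After Q10 arrays 2 and 3 were left out the median was -1.19, and 0 members were called by limma, with 14 at an unadjusted p under 0.05. Seen array by array, relative to the mean of the control livers, the list's median was -0.17, 0.39 and -0.16 in the QH2 livers and 1.17, 3.93 and 3.57 in the Q10 livers. The 3 QH2 values were close to 0 and the 3 Q10 values were all above them.

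The macrophage programme was lower on QH2 for nearly the whole list, with 22 of 23 members called lower and a median of -2.85. Of these, 19 were called in each of the 6 fits without 1 array. Mpeg1, the pore-forming protein perforin-2 of macrophages, had 297, 238 and 206 on QH2, 979.9, 2063 and 1981 on Q10 and 285, 177 and 344 on control diet (log2 -2.70 ± 0.31, adjusted p = 0.000258). Ctss, the lysosomal protease cathepsin S, had 209, 211 and 179 on QH2, 752, 1927 and 2128 on Q10 and 261, 129 and 218 on control diet (log2 -2.86 ± 0.35, adjusted p = 0.000323). In both genes the lowest Q10 liver was more than 2 times the highest QH2 liver. Adgre1, which encodes the macrophage surface protein F4/80, had 41.4, 53.9 and 49.2 on QH2, 142, 196 and 433 on Q10 and 61.3, 40.8 and 65.3 on control diet (log2 -2.24 ± 0.31, adjusted p = 0.000485), without overlap. Fcer1g, the signalling chain of Fc receptors, had 35.99, 48.2 and 24.0 on QH2, 185, 469 and 868 on Q10 and 45.5, 23.9 and 42.3 on control diet (log2 -3.57 ± 0.46, adjusted p = 0.000323). The list's array medians relative to the control mean were -0.11, 0.42 and -0.24 in the QH2 livers and 1.82, 3.33 and 3.45 in the Q10 livers, so the list was raised in Q10 array 1 as well. Its median without Q10 arrays 2 and 3 was -1.85, and limma called 0 members, with 20 at an unadjusted p under 0.05.

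Kupffer cell markers followed, with 9 of 12 members called lower on QH2, 8 of them in all 6 fits without 1 array, and a median of -2.07. Clec4f, a lectin of Kupffer cells, had 266, 372 and 219 on QH2, 1011, 819.5 and 2081 on Q10 and 349, 147 and 422 on control diet (log2 -2.10 ± 0.36, adjusted p = 0.00203). Q10 array 2 was the lowest of the Q10 livers here, and no QH2 liver reached it. Cd5l, a secreted protein of tissue macrophages, had 221, 291 and 171 on QH2, 970, 1994 and 2934 on Q10 and 295, 89.8 and 259 on control diet (log2 -2.998 ± 0.41, adjusted p = 0.000423). Clec1b, a lectin receptor, had 53.2, 76.1 and 49.2 on QH2, 166, 274 and 311 on Q10 and 69.9, 75.9 and 88.3 on control diet (log2 -2.03 ± 0.25, adjusted p = 0.000323). Marco, a scavenger receptor that macrophages raise on stimulation, was among the genes with the greatest change, at 9.31, 15.5 and 6.34 on QH2, 75.8, 1237 and 1699 on Q10 and 24.1, 9.11 and 11.51 on control diet (log2 -5.66 ± 0.86, adjusted p = 0.00102). Timd4, a receptor for apoptotic cells, fell too (log2 -2.89 ± 0.46, adjusted p = 0.00134). The iron exporter Slc40a1 (log2 -0.48 ± 0.18, adjusted p = 0.0896), the haemoglobin scavenger receptor Cd163 (log2 -0.76 ± 0.63, adjusted p = 0.511) and Kcna2 (log2 -1.62 ± 0.86, adjusted p = 0.251) were not called, though another Kcna2 probe set was, and are named to complete the list after their values were seen. The endothelial gene Cdh5 and the haem oxygenase Hmox1 stand on this list as well and were called.

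Of the list for monocytes and recruited macrophages 4 of 11 members were called lower, or 36.4%, where 6.33% of all genes were. They were Plac8 (log2 -2.46 ± 0.43, adjusted p = 0.00213), the membrane protein Ms4a6c (log2 -2.11 ± 0.38, adjusted p = 0.00257), the tetraspanin Cd9 (log2 -1.97 ± 0.42, adjusted p = 0.00747) and the chemokine receptor Ccr2 (log2 -1.73 ± 0.53, adjusted p = 0.0438). All 5 tested subunits of the phagocyte oxidase, the enzyme that makes superoxide in phagocytes, were called lower, and all 5 in each of the 6 fits without 1 array. Its catalytic subunit Cybb had 42.1, 76.7 and 38.9 on QH2, 224, 858 and 747 on Q10 and 77.3, 37.9 and 83.4 on control diet (log2 -3.36 ± 0.40, adjusted p = 0.000323). Cyba, its membrane partner, had 71.0, 94.8 and 60.3 on QH2, 231, 1569 and 818 on Q10 and 74.8, 38.0 and 86.6 on control diet (log2 -3.15 ± 0.47, adjusted p = 0.000911). Neither gene's groups overlapped. The regulators Rac2 (log2 -3.74 ± 0.56, adjusted p = 0.000933) and Ncf4 (log2 -3.04 ± 0.46, adjusted p = 0.000934) fell too.

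Genes of both classes of antigen presentation were lower on QH2. For MHC class I and the immunoproteasome 10 of 13 members were called lower, with a median of -0.90. The median was -0.93 with the signals as deposited, where 5 were called, and -0.35 with the common percentile, where 6 were. Psmb8, an interferon-induced proteasome subunit, had 245, 272 and 211 on QH2, 615, 1189 and 766 on Q10 and 234, 139 and 221 on control diet (log2 -1.77 ± 0.24, adjusted p = 0.000442). Psmb9, another of these subunits, had 221, 234 and 232 on QH2, 537, 1202 and 764 on Q10 and 204, 175 and 174 on control diet (log2 -1.78 ± 0.26, adjusted p = 0.000733). H2-K1, a class I heavy chain, had 277, 288 and 244 on QH2, 492, 1002 and 616 on Q10 and 325, 285 and 293 on control diet (log2 -1.32 ± 0.24, adjusted p = 0.0026). In all 3 genes the lowest Q10 liver was well above the highest QH2 liver. Tapbp, the chaperone tapasin, fell less (log2 -0.90 ± 0.17, adjusted p = 0.00425). For MHC class II 8 of 12 members were called lower, with a median of -2.29. Cd74, the invariant chain, had 158, 292 and 132 on QH2, 602, 4213 and 911 on Q10 and 262, 111 and 274 on control diet (log2 -2.85 ± 0.56, adjusted p = 0.00461). H2-Aa, a class II alpha chain, had 102, 243 and 141 on QH2, 515, 2299 and 579.6 on Q10 and 198, 103 and 212 on control diet (log2 -2.53 ± 0.52, adjusted p = 0.00642). Q10 array 2 was the highest for both, several times Q10 array 3, and no QH2 liver reached the lowest Q10 liver. The thiol reductase Ifi30 of the class II pathway fell too (log2 -2.01 ± 0.37, adjusted p = 0.00297). Class I and class II chains come in families of near-identical genes, so the value of a single member can include its relatives.

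Interferon response genes were called lower on QH2 for 23 of 34 members, and 4 had positive values. The list's median was -1.13 (-1.50 as deposited, -0.92 with the common percentile). Oas1a, an enzyme of the antiviral oligoadenylate system, had 44.1, 62.2 and 41.8 on QH2, 148, 192 and 292 on Q10 and 64.5, 66.2 and 67.5 on control diet (log2 -2.04 ± 0.25, adjusted p = 0.000323). Gbp7, an interferon-induced GTPase, had 141, 173 and 159 on QH2, 387, 574 and 1073 on Q10 and 152, 143 and 172 on control diet (log2 -1.97 ± 0.25, adjusted p = 0.000323). The lowest Q10 liver was above 2 times the highest QH2 liver in both. Trim30a, a regulator of toll-like signalling (log2 -3.07 ± 0.40, adjusted p = 0.000323), and the GTPase Iigp1 (log2 -1.45 ± 0.20, adjusted p = 0.000423) were lower as well. Unlike the pan-leukocyte list, this list was raised to a like degree in Q10 arrays 1 and 2: its medians relative to the control mean were -0.17, 0.08 and 0.01 in the QH2 livers and 0.83, 0.87 and 1.55 in the Q10 livers. Its median without Q10 arrays 2 and 3 was -0.88, Gbp7 and Iigp1 were called and 21 members had an unadjusted p under 0.05.

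For the interferon list, the promoters of tested members were searched on both strands for GAAANNGAA, the core of the interferon-stimulated response element. RefSeq windows ran from 250 bases before to 50 bases after each gene's start (build GRCm38.p6). The motif was in 17 of the 27 members that had a window, which is 18 of their 32 windows, or 56.2%, against 8.56% of all 32851 windows. A match is a description of letters, not of a bound site. Members were searched whether called or not, so the share describes how the list is made up and not these livers. The windows of the 2 members with a match and the smallest p follow, with the match in capitals. In Oas1a (chr5:120907476-120907775, minus strand) 2 overlapping matches begin 20 and 14 bases before the gene's start, and in Gbp7 (chr3:142530086-142530385, plus strand) the match lies on the opposite strand and begins 52 bases before it.
Oas1a: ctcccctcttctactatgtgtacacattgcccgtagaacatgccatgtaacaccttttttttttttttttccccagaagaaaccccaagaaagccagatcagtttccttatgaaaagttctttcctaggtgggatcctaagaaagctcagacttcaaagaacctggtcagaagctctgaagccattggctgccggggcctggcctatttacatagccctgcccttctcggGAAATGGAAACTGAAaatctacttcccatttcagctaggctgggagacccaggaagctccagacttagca
Gbp7: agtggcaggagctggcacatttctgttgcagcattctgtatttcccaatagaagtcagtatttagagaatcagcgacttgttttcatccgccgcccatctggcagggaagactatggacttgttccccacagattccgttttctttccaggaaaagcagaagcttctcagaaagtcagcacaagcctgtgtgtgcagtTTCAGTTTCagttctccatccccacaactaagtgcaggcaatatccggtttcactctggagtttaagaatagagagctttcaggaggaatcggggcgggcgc

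B cell genes were called lower on QH2 for 12 of 17 members, with a median of -2.53. Bank1, an adaptor of the B cell receptor, had 28.6, 33.0 and 25.0 on QH2, 85.3, 245 and 208 on Q10 and 26.9, 22.6 and 43.4 on control diet (log2 -2.47 ± 0.34, adjusted p = 0.000485). Pou2af1, a B cell co-activator of transcription, had 1.86, 8.69 and 5.87 on QH2, 23.2, 401 and 212 on Q10 and 10.4, 9.79 and 8.32 on control diet (log2 -4.47 ± 0.89, adjusted p = 0.00529). Ms4a1, which encodes CD20, had 12.0, 33.8 and 20.5 on QH2, 57.8, 1167 and 174 on Q10 and 20.2, 16.6 and 13.1 on control diet (log2 -3.42 ± 0.70, adjusted p = 0.00627). In these genes Q10 array 2 was highest, Q10 array 3 next and Q10 array 1 closest to the QH2 livers, though above them. Cd79a, a receptor chain, was called by a narrow margin (log2 -2.53 ± 0.79, adjusted p = 0.0494) and kept its call in 1 of the 6 fits without 1 array, while the other chain, Cd79b, kept it in all 6 (log2 -2.92 ± 0.61, adjusted p = 0.00697). Of 11 plasma cell and immunoglobulin genes 2 were called lower, or 18.2%. Of all genes with 1 probe set each 6.33% were called lower and 13.1% in either direction. The 2 were Mzb1 (log2 -2.65 ± 0.63, adjusted p = 0.0136) and Iglv1 (log2 -3.47 ± 0.95, adjusted p = 0.027).

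Lymphocyte genes other than those of B cells were called in part, where 13.1% of all genes with 1 probe set each were called in either direction. Of 13 T cell genes 1 was called lower, the adhesion molecule Cd2 (log2 -2.28 ± 0.66, adjusted p = 0.0348). The kinase Zap70 was called higher, with 130.3, 105 and 158 on QH2, 87.1, 24.8 and 44.1 on Q10 and 103, 81.5 and 72.3 on control diet (log2 1.48 ± 0.32, adjusted p = 0.0086). Cd3e, a chain of the T cell receptor complex, had 12.4, 8.58 and 6.01 on QH2, 19.9, 32.9 and 35.99 on Q10 and 4.03, 2.28 and 7.11 on control diet. These groups did not overlap, yet the difference did not pass (log2 -1.62 ± 0.67, adjusted p = 0.131). Of 12 genes of cytotoxic lymphocytes and NK cells 3 were called lower, or 25.0%. The chemokine Ccl5 had 5.31, 21.3 and 17.4 on QH2, 90.4, 295 and 356 on Q10 and 12.0, 2.17 and 6.01 on control diet (log2 -3.96 ± 0.68, adjusted p = 0.00203), without overlap. The activating receptor Klrk1 (log2 -3.47 ± 0.68, adjusted p = 0.00458) and the granule protein Nkg7 (log2 -2.54 ± 0.61, adjusted p = 0.0143) were the others.

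Neutrophil granule genes held some of the greatest fold changes, and Q10 arrays 2 and 3 carried them. Of 15 members 8 were called lower on QH2, 3 of them in all 6 fits without 1 array, with a median of -3.22; without Q10 arrays 2 and 3 the median was -0.88, with 1 member at an unadjusted p under 0.05. Mpo, the myeloperoxidase of neutrophil granules and their precursors, had 13.8, 5.71 and 3.53 on QH2, 33.6, 952 and 372 on Q10 and 57.8, 15.96 and 5.22 on control diet (log2 -4.91 ± 0.97, adjusted p = 0.00475). Q10 array 1 lay within the range of the control livers and above the highest QH2 liver. Camp, the antimicrobial peptide cathelicidin, had 11.9, 2.47 and 4.997 on QH2, 18.7, 1147 and 264 on Q10 and 45.01, 10.3 and 6.33 on control diet (log2 -4.82 ± 1.00, adjusted p = 0.00678). Ngp, another granule protein, had 17.9, 14.6 and 38.1 on QH2, 57.1, 2069 and 684 on Q10 and 88.8, 26.6 and 17.9 on control diet (log2 -4.27 ± 0.93, adjusted p = 0.0092). Lyz1, a lysozyme with a near-identical relative in macrophages, had 303, 444 and 276 on QH2, 1141, 5359.8 and 1389 on Q10 and 317, 190 and 380.4 on control diet (log2 -2.61 ± 0.43, adjusted p = 0.00156), with Q10 array 2 at several times the other Q10 livers.

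Among 24 chemokines and receptors 7 were called lower and 1 higher on QH2, or 29.2% and 4.17%. Of all genes 6.33% were called lower and 6.76% higher. Cxcl13, which draws B cells, had the greatest fold change of the genes named here, with 8.52, 29.4 and 16.2 on QH2, 103, 4421 and 5089.6 on Q10 and 18.7, 7.54 and 22.5 on control diet (log2 -6.28 ± 0.94, adjusted p = 0.00089). Q10 arrays 2 and 3 were more than an order of magnitude above Q10 array 1, which was itself above all QH2 and control livers. Cxcl9, an interferon-induced chemokine for T cells, had 76.3, 166 and 92.4 on QH2, 245, 3060.3 and 619.9 on Q10 and 84.2, 52.9 and 172 on control diet (log2 -2.87 ± 0.61, adjusted p = 0.00805), and the monocyte chemokine Ccl6 fell too (log2 -2.45 ± 0.57, adjusted p = 0.0127). Of 20 genes of NF-kappaB and toll-like signalling 7 were called lower, or 35%. Icam1, an endothelial and leukocyte adhesion molecule, had 44.1, 56.6 and 38.3 on QH2, 98.7, 556 and 329 on Q10 and 54.0, 49.9 and 53.6 on control diet (log2 -2.50 ± 0.42, adjusted p = 0.00189). The inflammasome protease Casp1 (log2 -1.83 ± 0.38, adjusted p = 0.00641), the receptor Tlr13 (log2 -2.04 ± 0.42, adjusted p = 0.00653) and the feedback inhibitor Tnfaip3 (log2 -2.29 ± 0.49, adjusted p = 0.00763) were the next by p.

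**Figure D2:**
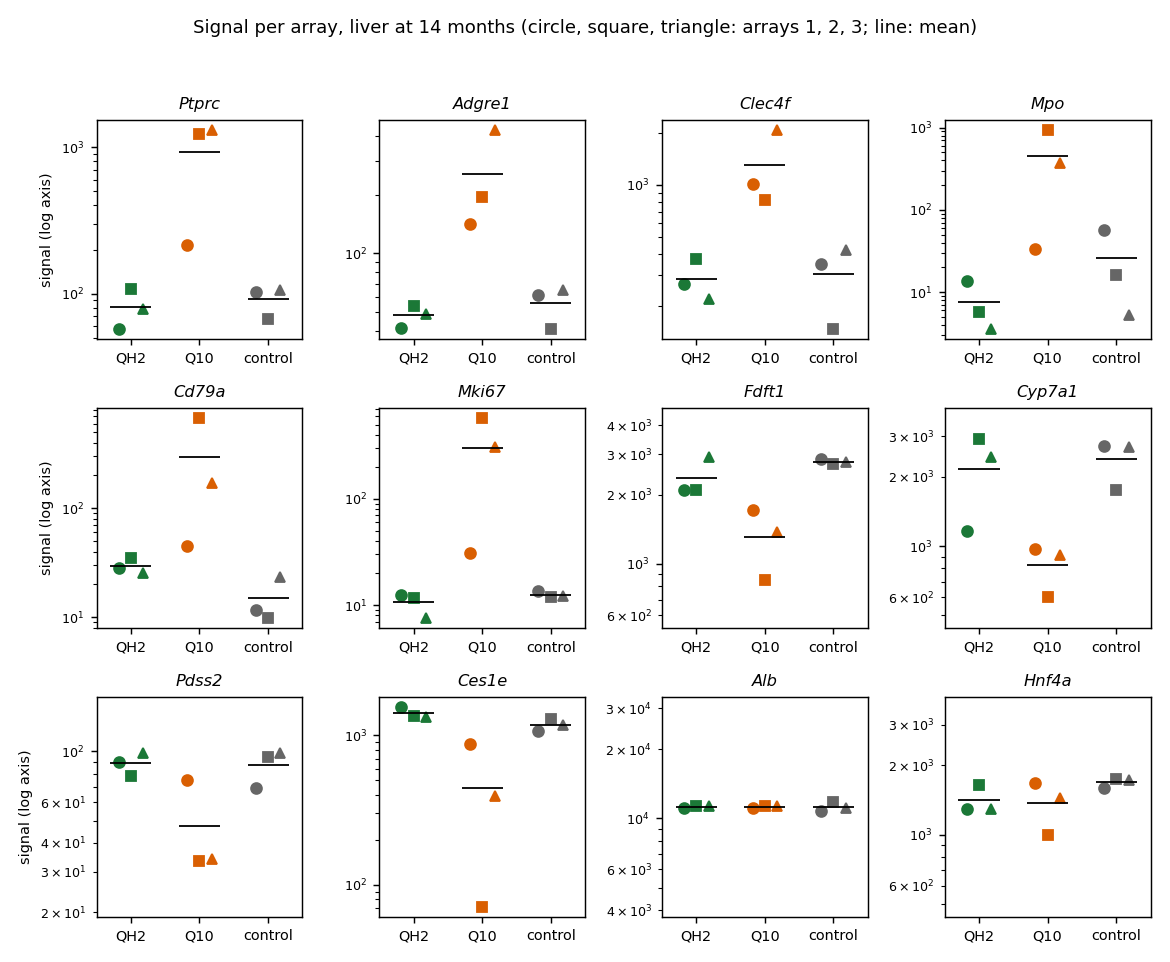
Normalised signal (log axis) of 12 genes in each liver at 14 months, by diet, with QH2 left, Q10 in the middle and control right; circles, squares and triangles are arrays 1, 2 and 3 and the line is the mean of 3. Leukocyte genes and Mki67 are higher in every Q10 liver than in every QH2 liver, with Ptprc at 57.1 to 107 on QH2 against 1232 and 1322 in Q10 arrays 2 and 3. For Mpo control array 1 (57.8) is above Q10 array 1 (33.6). Alb hardly moves, but quantile normalisation leaves little room for so bright a gene.

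Cell division genes were called lower on QH2 for 8 of 28 members, or 28.6%, where 6.33% of all genes were. The list had a median of -1.51 and 2 positive values, and Q10 arrays 2 and 3 again stood out most. Mki67, the proliferation marker Ki-67, had 12.5, 11.8 and 7.54 on QH2, 31.1, 573 and 305 on Q10 and 13.4, 11.9 and 12.2 on control diet (log2 -3.97 ± 0.67, adjusted p = 0.00183). Rrm2, the regulated subunit of ribonucleotide reductase, had 38.9, 34.4 and 32.2 on QH2, 61.8, 516 and 251 on Q10 and 27.2, 25.9 and 48.7 on control diet (log2 -2.48 ± 0.51, adjusted p = 0.00627). Top2a, topoisomerase II alpha, had 18.5, 11.2 and 5.24 on QH2, 23.5, 301 and 86.0 on Q10 and 16.6, 4.88 and 12.9 on control diet (log2 -2.92 ± 0.68, adjusted p = 0.0121). The list's medians relative to the control mean were 0.52, 0.02 and 0.47 in the QH2 livers and 0.38, 2.97 and 2.28 in the Q10 livers. The median fold change without Q10 arrays 2 and 3 was -0.02, with 1 member at an unadjusted p under 0.05. The QH2 values and that of Q10 array 1 overlapped. Ccna2, a cyclin of S phase, fell as well (log2 -2.87 ± 0.63, adjusted p = 0.00912), as did Mcm7, a subunit of the replicative helicase (log2 -1.24 ± 0.37, adjusted p = 0.0421). The E2F elements TTTCGCGC and TTTGGCGC, searched on both strands, stood in the promoter windows of 5 of the 23 members with a window, which is 5 of their 24 windows, or 20.8%, against 0.813% of all windows. Members were again searched whether called or not, so this share describes the list and not these livers. Mcm7 (chr5:138171834-138172133, minus strand) is shown, and named above, as the member with a match and the smallest p, with the match, 16 bases after the gene's start, in capitals.
Mcm7: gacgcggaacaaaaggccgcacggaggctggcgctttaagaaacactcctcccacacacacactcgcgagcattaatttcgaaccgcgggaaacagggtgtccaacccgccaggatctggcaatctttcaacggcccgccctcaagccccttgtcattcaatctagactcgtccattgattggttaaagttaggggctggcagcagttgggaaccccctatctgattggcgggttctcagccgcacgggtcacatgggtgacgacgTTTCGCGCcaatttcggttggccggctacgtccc

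Markers of other blood cells moved in the same arrays, and those of stromal cells most in Q10 array 2. Relative to the control mean, the endothelial and sinusoidal list had medians of -0.03, 0.78 and -0.18 in the Q10 livers. The stellate and fibroblast list had 0.13, 1.81 and 0.50. Of 8 megakaryocyte and platelet genes 3 were called lower on QH2, or 37.5%. Of all genes with 1 probe set each 6.33% were called lower and 13.1% in either direction. The platelet factor Pf4 had 46.0, 29.4 and 51.5 on QH2, 57.7, 770.2 and 291 on Q10 and 29.4, 43.2 and 27.6 on control diet (log2 -2.49 ± 0.57, adjusted p = 0.0113). The tubulin Tubb1 (log2 -2.17 ± 0.49, adjusted p = 0.0107) and the platelet chemokine Ppbp (log2 -4.14 ± 1.03, adjusted p = 0.0175) were the others. Of 9 erythroid genes 3 were called, or 33.3%. The carbonic anhydrase Car2 (log2 -1.41 ± 0.37, adjusted p = 0.0216) and the anion exchanger Slc4a1 (log2 -2.46 ± 0.68, adjusted p = 0.0272) were lower and the transcription factor Klf1 higher (log2 0.76 ± 0.23, adjusted p = 0.0408). Of 19 endothelial and sinusoidal genes 4 were called lower, or 21.05%. The mannose receptor Mrc1 led them, with 167, 159 and 143 on QH2, 312, 331 and 589 on Q10 and 158, 132 and 214 on control diet (log2 -1.33 ± 0.21, adjusted p = 0.00138). Of 18 stellate cell and fibroblast genes 3 were called lower, or 16.7%, near the share of all genes called in either direction. Col4a1, a basement membrane collagen, had 76.5, 79.7 and 44.5 on QH2, 89.3, 953 and 155 on Q10 and 85.1, 74.2 and 83.3 on control diet (log2 -1.85 ± 0.51, adjusted p = 0.0272). The others were the proteoglycan Dcn (log2 -0.86 ± 0.25, adjusted p = 0.0361) and the matrix protein Postn (log2 -1.13 ± 0.33, adjusted p = 0.0362). For Col4a1 Q10 array 2 was far above the other Q10 livers. Cell types cannot be separated in these arrays, and their part in the differences was not tested.

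The lists of hepatocyte metabolism ran the other way, and in the same livers: Q10 arrays 2 and 3, which had the highest leukocyte sums and the lowest Actb ratios, had the lowest medians in most of these lists. The part of leukocyte RNA and of RNA integrity in these differences was not tested. Counts of positive fold changes in these lists are read against 7454 of all 12775 genes with 1 probe set each. Counts of called members are read against 6.76% of these genes called higher and 13.1% in either direction. Genes of cholesterol synthesis were higher on QH2. Of 18 tested members 9 were called, every one higher, against 6.76% of all genes with 1 probe set each. The list's median was 0.75, and 17 members had a positive fold change. The median was 0.66 with the signals as deposited, where 1 member was called, and 1.24 with the common percentile, where 14 were. Mvd, which makes isopentenyl diphosphate, had 179, 171 and 345 on QH2, 108, 45.8 and 61.0 on Q10 and 189.9, 194 and 262 on control diet (log2 1.69 ± 0.38, adjusted p = 0.0109). Pmvk, the kinase just before it, had 549, 316 and 410.3 on QH2, 279, 81.5 and 131 on Q10 and 475, 412 and 312 on control diet (log2 1.52 ± 0.34, adjusted p = 0.0111). Msmo1, a demethylating oxidase late in the pathway, had 1944, 2109 and 3319.5 on QH2, 1066, 636 and 1131 on Q10 and 3615, 2572 and 1986 on control diet (log2 1.38 ± 0.31, adjusted p = 0.011). Hsd17b7, a late reductase, had 777, 852 and 1174 on QH2, 624, 263 and 502 on Q10 and 1079, 920.3 and 1029 on control diet (log2 1.08 ± 0.28, adjusted p = 0.0205). In these 4 genes no Q10 liver reached the lowest QH2 liver, and Q10 array 2 was the lowest. Fdft1, the squalene synthase that commits farnesyl diphosphate to sterols, was higher too (log2 0.89 ± 0.23, adjusted p = 0.0206) and is named for its place in the pathway after its value was seen.

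Hmgcs1, the synthase that opens the mevalonate pathway, had 7815, 7815 and 9304 on QH2, 6481, 3415 and 5237 on Q10 and 9222, 8718 and 9222 on control diet (log2 0.76 ± 0.22, adjusted p = 0.0339) and kept its call in 1 of the 6 fits without 1 array. Its 4 other tested probe sets were not called. Sqle, the squalene epoxidase, had 665, 717 and 1095 on QH2, 718, 471 and 588 on Q10 and 1201, 984 and 979 on control diet, with overlapping groups (log2 0.46 ± 0.27, adjusted p = 0.309). Ggps1, on the branch to geranylgeranyl diphosphate, was the single member with a negative value (log2 -0.26 ± 0.29, adjusted p = 0.647), for which it is named. Of the 9 called members 0 were called in all 6 fits without 1 array, and limma called 0 members without Q10 arrays 2 and 3, where the median was 0.27 and 1 member had an unadjusted p under 0.05. Relative to the control mean the list's medians were -0.28, -0.33 and 0.07 in the QH2 livers and -0.49, -1.50 and -0.96 in the Q10 livers. The 3 Q10 livers were lower than the 3 QH2 livers, and Q10 array 1 was the nearest. Single livers at 6 months reached -1.04 (QH2 array 2), -0.98 (Q10 array 3) and -0.65 (control array 1) against the same mean. Of the sterol sensing and uptake genes 2 of 16 were called, or 12.5%, where 13.1% of all genes were called in either direction, and both were lower. This split turned with the scaling: with the common percentile 5 were called higher and 1 lower, at a median of 0.35, against 0.04 after quantile normalisation, and as deposited limma called 0, with 2 at an unadjusted p under 0.05. The ubiquitin ligase Mylip had 39.4, 64.9 and 41.5 on QH2, 74.4, 99.98 and 126 on Q10 and 64.7, 65.0 and 55.9 on control diet (log2 -1.03 ± 0.23, adjusted p = 0.0106). Npc2, which carries cholesterol out of lysosomes, fell too (log2 -0.48 ± 0.15, adjusted p = 0.0447), but its direction turned with the common percentile, at 0.08. Insig1, which retains the sterol sensor in the endoplasmic reticulum, was not called (log2 0.79 ± 0.27, adjusted p = 0.0687).

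**Figure D3:**
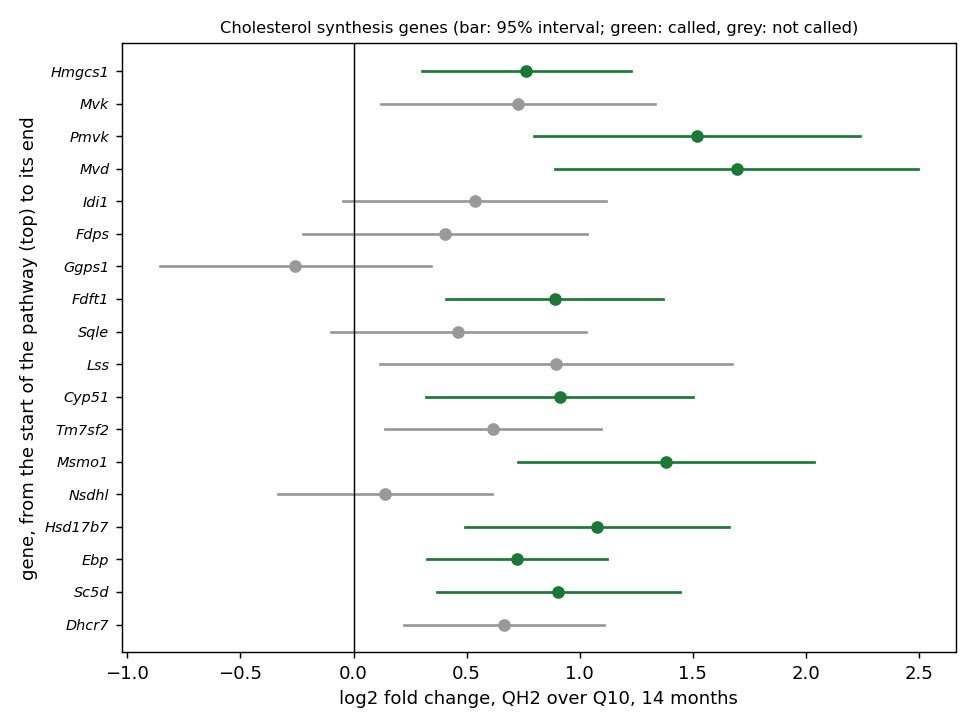
Log2 fold change of QH2 over Q10 in liver at 14 months for the 18 tested cholesterol synthesis genes, in pathway order from the start (top) to the end. Points are estimates and bars are 95% intervals, green where called and grey where not. Of the 18 estimates 17 lie right of 0, from 0.14 (Nsdhl) to 1.69 (Mvd), and Ggps1 lies left of it at -0.26.

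The promoters of the tested members were searched for TCACNCCAC, the core of the sterol regulatory element, on both strands. Of the 15 members that had a window it was in 1, Hmgcs1, which is 1 of their 18 windows, or 5.56%, against 1.24% of all windows. The Hmgcs1 window (chr13:119690101-119690400, plus strand) is shown with the match, which begins 137 bases before the gene's start, in capitals.
Hmgcs1: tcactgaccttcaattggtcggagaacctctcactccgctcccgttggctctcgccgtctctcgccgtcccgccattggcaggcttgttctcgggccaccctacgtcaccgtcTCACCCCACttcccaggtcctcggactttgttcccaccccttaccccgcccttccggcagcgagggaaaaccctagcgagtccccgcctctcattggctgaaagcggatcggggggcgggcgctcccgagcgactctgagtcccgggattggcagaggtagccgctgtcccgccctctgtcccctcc

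Bile acid genes all had positive values, 19 of 19, with a median of 0.45, but 2 were called, or 10.5%. Of all genes 6.76% were called higher and 13.1% in either direction. Cyp7a1, the rate-limiting enzyme of bile acid synthesis, had 1159, 2914 and 2441 on QH2, 977, 600.1 and 919.5 on Q10 and 2712, 1753 and 2700.5 on control diet (log2 1.31 ± 0.32, adjusted p = 0.0159). The lowest QH2 liver, array 1, stood well under the other QH2 livers and close to the highest Q10 liver. Slc27a5, which activates bile acids for conjugation, had 4394, 3785 and 4088 on QH2, 3999.6, 1683 and 2322 on Q10 and 4078, 3876 and 3726 on control diet (log2 0.71 ± 0.20, adjusted p = 0.0348), with overlap between QH2 array 2 and Q10 array 1. Amacr (log2 0.62 ± 0.20, adjusted p = 0.0516) and the bile acid receptor Nr1h4 (log2 0.48 ± 0.16, adjusted p = 0.0589) were not called. Fatty acid synthesis genes likewise had positive values in 18 of 18, with a median of 0.48, and 4 were called. The lipogenic transcription factor Srebf1 had 951, 1387 and 1473 on QH2, 945, 276 and 647 on Q10 and 847, 936 and 978 on control diet (log2 1.17 ± 0.31, adjusted p = 0.0242). The others were the triglyceride synthase Dgat1 (log2 0.70 ± 0.20, adjusted p = 0.0342), the lipogenic protein Thrsp (log2 1.29 ± 0.37, adjusted p = 0.0348) and Agpat2, of phospholipid and triglyceride synthesis (log2 0.71 ± 0.22, adjusted p = 0.0482). Without Q10 arrays 2 and 3 the fatty acid list's median changed sign, to -0.26, and with the signals as deposited the list's median was 0.42.

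Of 29 targets of the fatty acid receptor PPARalpha and oxidation genes 4 were called higher, with a median of 0.37. That is 13.8%, where 6.76% of all genes were called higher and 13.1% in either direction. Cyp4a14, a fatty acid hydroxylase and strong PPARalpha target, had 2257, 2107 and 2040.3 on QH2, 746, 86.9 and 1521 on Q10 and 1758, 2535 and 1545 on control diet (log2 2.20 ± 0.62, adjusted p = 0.0315), where Q10 array 2 stood at a small part of the others. Acaa1a, a peroxisomal thiolase, had 302, 179 and 219 on QH2, 162, 54.1 and 107 on Q10 and 192, 227 and 221 on control diet (log2 1.21 ± 0.28, adjusted p = 0.0116). The reductase Decr1 of unsaturated fatty acid oxidation (log2 0.71 ± 0.20, adjusted p = 0.0324) and the carnitine carrier Slc25a20 (log2 0.72 ± 0.22, adjusted p = 0.0418) were the others. Cpt1a, the entry enzyme of mitochondrial fatty acid oxidation, had 1158, 1565 and 1287 on QH2, 1632, 1122 and 1661 on Q10 and 1255, 1791 and 1496 on control diet, with overlap (log2 -0.13 ± 0.22, adjusted p = 0.782), but another of its probe sets was called higher. Fabp1, the fatty acid binding protein of liver, had 11723, 11987 and 11987 on QH2, 11987, 4435 and 11723 on Q10 and 11042, 10856 and 11282 on control diet (log2 0.48 ± 0.25, adjusted p = 0.248). Of 14 glucose metabolism genes 0 were called by limma and 2 had an unadjusted p under 0.05, with Khk, the fructose kinase, nearest (log2 0.57 ± 0.19, adjusted p = 0.0623). With the common percentile 4 were called higher and the median was 0.67, against 0.21.

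Detoxifying enzymes were higher on QH2 where they were called. Of 26 cytochromes P450 of families 1 to 3, which oxidise drugs and steroids, 4 were called, with a median of 0.61. That is 15.4%, where 6.76% of all genes were called higher and 13.1% in either direction. Cyp2b13, which is higher in female than in male mice, had 2103, 2461 and 2653 on QH2, 1075, 186 and 835 on Q10 and 1916, 1749 and 1738 on control diet (log2 2.12 ± 0.39, adjusted p = 0.00316) and was the single P450 called in all 6 fits without 1 array; it was also called without Q10 arrays 2 and 3. Cyp2b10, a target of the receptor CAR, had 257, 113 and 110.2 on QH2, 121, 8.93 and 18.4 on Q10 and 86.9, 101 and 115 on control diet (log2 2.38 ± 0.60, adjusted p = 0.0181), with QH2 arrays 2 and 3 under Q10 array 1. The dioxin-inducible Cyp1a2 (log2 1.37 ± 0.36, adjusted p = 0.0237) and Cyp2b9 (log2 1.45 ± 0.40, adjusted p = 0.0277) were the others. The Cyp2b genes are close relatives, so their probe sets can read each other's transcripts. Cyp2e1, the ethanol-inducible P450, had 9953, 10546 and 10108 on QH2, 9177, 4739.7 and 10546 on Q10 and 10320, 10052 and 9572 on control diet (log2 0.40 ± 0.20, adjusted p = 0.23). Cyp3a11, a major P450 of liver, had 7353, 7559 and 7467 on QH2, 7617, 7559 and 8829.9 on Q10 and 7674, 7895 and 6969 on control diet (log2 -0.10 ± 0.12, adjusted p = 0.681). Neither was called. Of 30 conjugating enzymes 10 were called, each higher, with a median of 0.55. Gstk1, the mitochondrial and peroxisomal glutathione transferase, had 1252, 1332 and 1382 on QH2, 1100.2, 435 and 625 on Q10 and 1240, 1223 and 1235 on control diet (log2 0.98 ± 0.21, adjusted p = 0.00798). Gstt3, a theta class transferase, had 319, 347 and 360.1 on QH2, 286, 16.9 and 60.05 on Q10 and 396, 328 and 358 on control diet (log2 2.33 ± 0.55, adjusted p = 0.0141). The glucuronosyltransferase Ugt2b35 (log2 0.61 ± 0.14, adjusted p = 0.0138) and the acetyltransferase Nat8 (log2 1.19 ± 0.29, adjusted p = 0.016) were among the others.

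Of 32 genes of the urea cycle and amino acid breakdown 13 were called higher on QH2, 32 had positive values and the median was 0.55. Of the 13, 0 were called in all 6 fits without 1 array: the list had 0 calls without Q10 array 2, 2 without Q10 array 3 and 2 without QH2 array 3. Dbt, of the branched-chain ketoacid dehydrogenase, had 625, 622 and 536 on QH2, 497, 235 and 294 on Q10 and 539, 502 and 449 on control diet (log2 0.86 ± 0.19, adjusted p = 0.0099). Aass, of lysine breakdown, had 2007, 1962 and 1814 on QH2, 1628, 719.5 and 999 on Q10 and 1875, 1872 and 1906 on control diet (log2 0.87 ± 0.20, adjusted p = 0.0111). Agxt, which detoxifies glyoxylate, had 1881, 1868 and 1894 on QH2, 1659, 598 and 819.5 on Q10 and 1683, 1788 and 1742 on control diet (log2 1.01 ± 0.24, adjusted p = 0.0126). In each of them Q10 array 1 came close to the QH2 livers and Q10 arrays 2 and 3 stood far lower. Kmo, of tryptophan breakdown, was called as well (log2 0.73 ± 0.17, adjusted p = 0.0132). The list's medians relative to the control mean were -0.05, 0.05 and 0.04 in the QH2 livers and -0.09, -1.01 and -0.62 in the Q10 livers. Without Q10 arrays 2 and 3 the median was 0.04 and 0 members had an unadjusted p under 0.05. With the signals as deposited limma called 0 members, with 7 at an unadjusted p under 0.05 and a median of 0.46.

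Most genes that make and use coenzyme Q had positive fold changes. Of 12 coenzyme Q synthesis genes 4 were called higher on QH2, or 33.3%, where 6.76% of all genes were. Positive values were seen in 12, with a median of 0.60. The list had 0 calls without QH2 array 3, without Q10 array 2 and without Q10 array 3. Pdss2, a subunit of the synthase that makes the isoprenoid tail, had 89.5, 78.4 and 98.5 on QH2, 75.01, 33.4 and 34.1 on Q10 and 69.4, 94.8 and 98.0 on control diet (log2 0.99 ± 0.24, adjusted p = 0.0156). Coq3, a methyltransferase, had 116, 123 and 172 on QH2, 97.1, 58.1 and 78.4 on Q10 and 101, 113 and 116 on control diet (log2 0.81 ± 0.20, adjusted p = 0.017). Coq4, which organises the synthesis complex, had 125, 98.8 and 109 on QH2, 70.6, 62.7 and 56.2 on Q10 and 68.2, 79.1 and 99.3 on control diet (log2 0.80 ± 0.21, adjusted p = 0.0205). Coq7, a hydroxylase, had 275, 276 and 252 on QH2, 187, 206 and 189.8 on Q10 and 282, 207 and 243 on control diet (log2 0.46 ± 0.14, adjusted p = 0.0402). For each of the 4 the groups did not overlap, but Q10 array 1 was above Q10 arrays 2 and 3 for Pdss2, Coq3 and Coq4. Coq8a, an atypical kinase of the pathway, was not called by its brightest probe set (log2 0.87 ± 0.28, adjusted p = 0.0533), but another was called higher. The list's median without Q10 arrays 2 and 3 was 0.27, and with the signals as deposited it was 0.17. In either case limma called 0 members, with 2 at an unadjusted p under 0.05 without those arrays and 0 as deposited.

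Of 33 complex I subunits, which pass electrons from NADH to ubiquinone, 11 were called higher and 33 had positive values. In 22 of them every QH2 liver was above every Q10 liver, as in 2221 of all 12775 genes with 1 probe set each. The median was 0.45. Ndufb9, an accessory subunit, had 3407, 3066 and 3407 on QH2, 2609, 1434 and 1846 on Q10 and 2863, 2825 and 3016 on control diet (log2 0.79 ± 0.16, adjusted p = 0.00586). Ndufb10, another, had 1356, 1163 and 1321 on QH2, 997, 621 and 706 on Q10 and 1060.2, 1076 and 1109 on control diet (log2 0.75 ± 0.15, adjusted p = 0.00642). Ndufv1, the subunit that binds NADH, had 1506, 1326 and 1565 on QH2, 1119, 797 and 884 on Q10 and 1252, 1174 and 1400.3 on control diet (log2 0.66 ± 0.14, adjusted p = 0.00725). These 3 were called in all 6 fits without 1 array, and Ndufb7 in 3 of them (log2 0.68 ± 0.15, adjusted p = 0.011). Relative to the control mean the list's medians were 0.16, 0.10 and 0.18 in the QH2 livers and -0.02, -0.51 and -0.34 in the Q10 livers, so the QH2 livers were a little above control and Q10 arrays 2 and 3 under it. Of 15 other dehydrogenases that reduce ubiquinone 4 were called higher. Prodh, proline dehydrogenase, had 1309.6, 1347 and 1184 on QH2, 1011, 349 and 344 on Q10 and 1025, 993 and 959 on control diet (log2 1.37 ± 0.29, adjusted p = 0.00734). Sqor, which oxidises sulphide, had 1889, 1606 and 1878 on QH2, 1591, 714 and 961 on Q10 and 1677, 1641 and 1469 on control diet (log2 0.79 ± 0.20, adjusted p = 0.0169). Prodh2 (log2 1.07 ± 0.27, adjusted p = 0.0199) and the complex II subunit Sdhd (log2 0.56 ± 0.17, adjusted p = 0.0488) were the others.

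Of 26 subunits of complexes III to V 9 were called higher, with a median of 0.35. The count was 0 without QH2 array 3 or Q10 array 2, and 1 without QH2 array 1 or Q10 array 3. Uqcr10 (log2 0.67 ± 0.15, adjusted p = 0.0116), Uqcrq (log2 0.61 ± 0.15, adjusted p = 0.0153) and Uqcr11 (log2 0.62 ± 0.15, adjusted p = 0.0179) belong to complex III, which takes electrons from ubiquinol, and Cox7a2 to complex IV (log2 0.48 ± 0.12, adjusted p = 0.0165). In the citric acid cycle 4 of 20 were called higher: the fumarase Fh1 (log2 0.49 ± 0.13, adjusted p = 0.0241), the ligase subunit Sucla2 (log2 0.60 ± 0.16, adjusted p = 0.0243), the succinyltransferase Dlst (log2 0.50 ± 0.15, adjusted p = 0.0367) and the isocitrate dehydrogenase Idh1 (log2 0.45 ± 0.13, adjusted p = 0.0402). With the signals as deposited limma called 0 members of complex I, of complexes III to V and of the citric acid cycle, with 1, 0 and 0 at an unadjusted p under 0.05 and medians of 0.36, 0.34 and 0.15 beside -0.40 for all probe sets. With the common percentile 33 of 33 complex I members were called, all higher.

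Secreted liver proteins gave few calls after quantile normalisation. In either direction 12.5% of the apolipoprotein, 15% of the acute phase and 18.8% of the complement list were called, where 13.1% of all genes were. Of 31 plasma proteins and clotting factors limma called 0, with 3 at an unadjusted p under 0.05 and a median of 0.03. With the common percentile 6 were called higher, at a median of 0.61. The clotting factor F11 was nearest (log2 -0.55 ± 0.21, adjusted p = 0.0953). Of 16 apolipoproteins and related genes the apolipoprotein Apoc4 was called higher (log2 0.61 ± 0.15, adjusted p = 0.0172) and Pltp, the phospholipid transfer protein of plasma lipoproteins, lower. Pltp had 1075, 539 and 554 on QH2, 2269, 2847 and 4569 on Q10 and 1049, 854 and 1332 on control diet (log2 -2.17 ± 0.28, adjusted p = 0.000323) and was called in all 6 fits without 1 array. With the common percentile 4 apolipoprotein genes were called higher and 1 lower, at a median of 0.61. These lists are among the brightest on the array, where quantile normalisation leaves little room for a difference: 15 of the 31 plasma protein genes and 9 of the 16 apolipoprotein genes had a mean signal above 5000, which 136 of the 27022 probe sets had. Of 20 acute phase genes the metalloreductase Steap4 (log2 -0.67 ± 0.17, adjusted p = 0.017) and Cp, ceruloplasmin (log2 -0.53 ± 0.13, adjusted p = 0.0177), were lower and the orosomucoid Orm3 higher (log2 1.57 ± 0.40, adjusted p = 0.02). The direction of Cp turned with the common percentile, at 0.08. Lcn2, an iron-sequestering protein, had 648, 156 and 208 on QH2, 366, 2187 and 971 on Q10 and 440.3, 283 and 331 on control diet, with overlap (log2 -1.74 ± 0.58, adjusted p = 0.0653). Of 16 complement genes made by hepatocytes the terminal component C8g was higher (log2 0.82 ± 0.18, adjusted p = 0.00839) and its partner C8a (log2 -0.99 ± 0.26, adjusted p = 0.0241) and the protease C1s1 (log2 -0.55 ± 0.15, adjusted p = 0.0312) lower, C1s1 turning to 0.04 with the common percentile. The medians of the acute phase and complement lists, -0.09 and -0.18, turned positive with the common percentile, at 0.45 and 0.33.

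Of the major urinary proteins, pheromone carriers made in liver under growth hormone control, 2 of 3 tested were called higher on QH2. Mup10 had 114, 171 and 199 on QH2, 73.8, 4.30 and 1.33 on Q10 and 48.2, 42.0 and 144 on control diet (log2 4.02 ± 0.81, adjusted p = 0.00551). Mup5 had 102, 107 and 119 on QH2, 79.5, 7.65 and 7.45 on Q10 and 53.8, 67.0 and 97.5 on control diet (log2 2.61 ± 0.54, adjusted p = 0.00679). Q10 arrays 2 and 3 were near the bottom of the scale and Q10 array 1 was far above them, but under all QH2 livers. Mup3 had 852, 1014 and 979 on QH2, 1125, 52.7 and 106 on Q10 and 581, 428 and 1071 on control diet, where Q10 array 1 was the highest of the 6, and was not called (log2 2.34 ± 0.78, adjusted p = 0.0631). The Mup genes are near-identical copies, so the values cannot be assigned to a single member. Of 18 transcription factors of hepatocytes limma called 0, with 5 at an unadjusted p under 0.05 and a median of 0.32, which was -0.01 as deposited and 0.57, with 6 called higher, with the common percentile. The xenobiotic receptor Nr1i3 was nearest (log2 0.87 ± 0.28, adjusted p = 0.0522).

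Of 21 antioxidant enzymes and targets of the transcription factor NRF2 4 were called higher and 1 lower on QH2, 23.8% in all against 13.1% of genes. Hmox1, which degrades haem and is strong in macrophages, had 35.7, 31.8 and 32.7 on QH2, 71.7, 136 and 209.7 on Q10 and 41.2, 28.7 and 42.8 on control diet (log2 -1.90 ± 0.31, adjusted p = 0.00138), the Q10 livers lying above all others. The mitochondrial thioredoxin Txn2 (log2 0.72 ± 0.18, adjusted p = 0.0196), its reductase Txnrd2 (log2 1.01 ± 0.29, adjusted p = 0.0313) and the cytosolic superoxide dismutase Sod1 (log2 0.52 ± 0.16, adjusted p = 0.0406) were higher. Of 21 heat shock chaperones 1 was called. Hsp90aa1, the inducible HSP90, had 791, 1075 and 877 on QH2, 1463, 2092 and 1997 on Q10 and 1693, 1526 and 1685 on control diet (log2 -1.01 ± 0.20, adjusted p = 0.0053), and here the QH2 livers were under all Q10 and all control livers. Hsph1 had 137, 296 and 202 on QH2, 489, 204 and 351 on Q10 and 427, 510.1 and 469 on control diet, with overlap between QH2 and Q10 (log2 -0.70 ± 0.29, adjusted p = 0.144). Of 24 genes of the unfolded protein response 3 were called lower, or 12.5%, where 6.33% of all genes were called lower and 13.1% in either direction. Among the 3 was the disulphide isomerase Pdia3 (log2 -0.61 ± 0.16, adjusted p = 0.0227). The secreted stress protein Manf had 307, 420.1 and 533 on QH2, 611, 829.5 and 946 on Q10 and 873, 677 and 777 on control diet (log2 -0.93 ± 0.25, adjusted p = 0.0246). Creld2, of the endoplasmic reticulum, had 114, 117 and 143 on QH2, 233, 212 and 307 on Q10 and 367, 249 and 330.4 on control diet (log2 -0.99 ± 0.29, adjusted p = 0.0357). For Manf and Creld2 too the QH2 livers were under all Q10 and all control livers. The medians of both stress lists, -0.12 and -0.14, turned positive with the common percentile, at 0.17 and 0.24.

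Among called genes whose groups did not overlap, the 12 with the greatest rise on QH2 and the 12 with the greatest fall were taken whatever their function. Of the 12 that rose 6, and of the 12 that fell 8, were called in all 6 fits without 1 array. Beside the Mup genes and Gstt3, Nnmt, which methylates nicotinamide, had 1007, 623 and 828 on QH2, 479.9, 61.0 and 32.4 on Q10 and 360.4, 381 and 648 on control diet (log2 3.01 ± 0.62, adjusted p = 0.00612). Ces1e, a carboxylesterase of a family of close relatives, had 1549, 1358 and 1332 on QH2, 876, 71.0 and 392 on Q10 and 1073, 1279 and 1167 on control diet (log2 2.27 ± 0.51, adjusted p = 0.0108). Mfsd2a, a transporter of lysophospholipids, had 246, 392 and 387 on QH2, 156, 17.9 and 92.1 on Q10 and 176, 256 and 153 on control diet (log2 2.36 ± 0.54, adjusted p = 0.0116). In all 3 no Q10 liver reached the lowest QH2 liver, and Q10 arrays 2 and 3 were lowest. Slc26a4, the anion exchanger pendrin, had 25.1, 22.9 and 28.0 on QH2, 1.73, 1.19 and 9.22 on Q10 and 17.6, 21.5 and 18.4 on control diet (log2 2.74 ± 0.46, adjusted p = 0.00177), and here Q10 array 1 was low as well. Mmd2 had 187, 169 and 173 on QH2, 149.7, 8.28 and 8.53 on Q10 and 178, 135 and 173 on control diet (log2 2.90 ± 0.65, adjusted p = 0.0105). Slc13a2, a citrate carrier (log2 2.69 ± 0.60, adjusted p = 0.0105), Prdm11 (log2 2.37 ± 0.56, adjusted p = 0.0139), Ankrd9 (log2 2.82 ± 0.77, adjusted p = 0.0262) and AW551984 (log2 2.33 ± 0.69, adjusted p = 0.039) had signals under 50 on every array compared. The other tested AW551984 probe set was not called.

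The genes that fell furthest beside those above were led by Tff3, an epithelial trefoil peptide, with 2.07, 3.33 and 1.54 on QH2, 28.0, 4009.7 and 14.6 on Q10 and 1.92, 9.33 and 18.3 on control diet (log2 -5.24 ± 1.35, adjusted p = 0.0204), where 1 liver, Q10 array 2, held nearly the whole signal and the call was kept in 3 of 6 fits. S100a8, a calcium-binding protein of neutrophils and monocytes, had 100.3, 22.1 and 41.3 on QH2, 103, 6162 and 2532 on Q10 and 271, 41.9 and 28.5 on control diet (log2 -4.67 ± 1.10, adjusted p = 0.0136), with Q10 array 1 just above QH2 array 1. BC023105 had 12.2, 26.0 and 18.8 on QH2, 287, 182 and 1101 on Q10 and 13.7, 10.2 and 17.9 on control diet (log2 -4.33 ± 0.59, adjusted p = 0.000442), and Q10 array 1 was clearly raised. Cd24a, a surface protein of immature blood cells and B cells, had 21.9, 44.8 and 29.7 on QH2, 78.8, 2037 and 1456 on Q10 and 34.4, 23.9 and 27.8 on control diet (log2 -4.28 ± 0.74, adjusted p = 0.00213). The phosphatase Ptpn22 of lymphocytes (log2 -4.33 ± 0.83, adjusted p = 0.00405) and the glucose carrier Slc2a3 (log2 -4.23 ± 1.13, adjusted p = 0.0238) completed them, but both passed the filter on low signals through the Q10 livers and were not tested without Q10 arrays 2 and 3. The same held for the immunoglobulin gene Iglv1. The other tested Slc2a3 probe set was not called. Many of these genes were close to 0 on QH2, where the fold depends on the offset: with 16 in place of 1 the median size over the 24 genes was 2.36, against 4.13.

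The gap between QH2 and Q10 was tested against the gap after 6 months on the diets (3 livers per diet, about 7 months old). The difference between the durations was called for 546 probe sets, or 2.02%. Of the 23 macrophage genes 13 were among them, of the 22 pan-leukocyte genes 8 and of the 5 phagocyte oxidase genes 4. At 6 months Ptprc had 70.1, 63.0 and 93.5 on QH2 and 169, 82.2 and 81.4 on Q10 (log2 -0.48), and its gap changed by -2.67 ± 0.68, adjusted p = 0.0482. Adgre1 had 75.03, 57.6 and 85.0 on QH2 and 115, 76.2 and 83.2 on Q10 at 6 months (log2 -0.32), a change of -1.91 ± 0.43, adjusted p = 0.0322. For both genes, QH2 and Q10 overlapped at 6 months and did not at 14 months. Mvd was the cholesterol synthesis gene called here: it had 48.5, 66.4 and 81.3 on QH2 and 159, 182 and 82.5 on Q10 at 6 months, lower on QH2 without overlap, and its gap changed by 2.75 ± 0.54, adjusted p = 0.0201. Of the heat shock chaperones 4 were called, all towards a lower QH2 value at 14 months: Hsph1 (-2.19 ± 0.42, adjusted p = 0.0198), Hsp90aa1 (-1.38 ± 0.29, adjusted p = 0.0241), Hspa4l (-1.43 ± 0.35, adjusted p = 0.0424) and Stip1 (-0.82 ± 0.20, adjusted p = 0.0411), of which Hspa4l and Stip1 are named because the test called them. Hsph1 had 573, 583 and 843 on QH2 and 175, 312 and 228 on Q10 at 6 months, higher on QH2 without overlap (log2 1.496). The count for this test was 51 without Q10 arrays 2 and 3, and it ran from 33 (without QH2 array 3) to 3372 (without Q10 array 1) in fits without 1 array.

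Against control livers limma called 0 probe sets for QH2 (1673 at an unadjusted p under 0.05), or 0%, and 1677 for Q10, or 6.21%. Set beside the control livers, which both comparisons share, the list medians at 14 months were nearer 0 for QH2 in the leukocyte and metabolic lists given next. For the pan-leukocyte list they were -0.01 for QH2 and 2.97 for Q10, for the macrophage list -0.01 for QH2 and 2.89 for Q10 and for the interferon list -0.03 for QH2 and 1.03 for Q10. For cholesterol synthesis they were -0.14 for QH2 and -0.93 for Q10, for the P450 list 0.02 for QH2 and -0.63 for Q10 and for complex I 0.14 for QH2 and -0.27 for Q10. The stress lists did not share this: the heat shock chaperones were at -0.36 for QH2 and -0.29 for Q10 and the unfolded protein response at -0.31 for QH2 and -0.13 for Q10. Ptprc had log2 values against control of -0.20 for QH2 and 2.95 for Q10, and Cyp7a1 had -0.21 for QH2 and -1.52 for Q10.

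Within the Q10 group array 1 carried part of the picture. Its macrophage, Kupffer cell, MHC class II and interferon lists were 1.82, 1.71, 1.43 and 0.83 above the control mean, while its P450, urea cycle and complex I lists were at 0.00, -0.09 and -0.02. For the macrophage list the control livers at 14 months ran from -0.57 to 0.40. Single livers at 6 months reached 1.05 (Q10 array 1) and 0.83 (control array 3) against the same mean. Of the 12 probe sets called with Q10 array 1 as the single Q10 liver, assumed to vary like the other groups, 8 were also called with all arrays: those of Pltp, Iigp1 (2 probe sets), Slc26a4, the adhesion receptor Cd44, BC023105, Gbp7 and Cyp2b13. The other 4, for Arrdc1, Pigq, Miip and Aen, were not, and genes not met above are named here because they complete the set. 

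**Figure D4:**
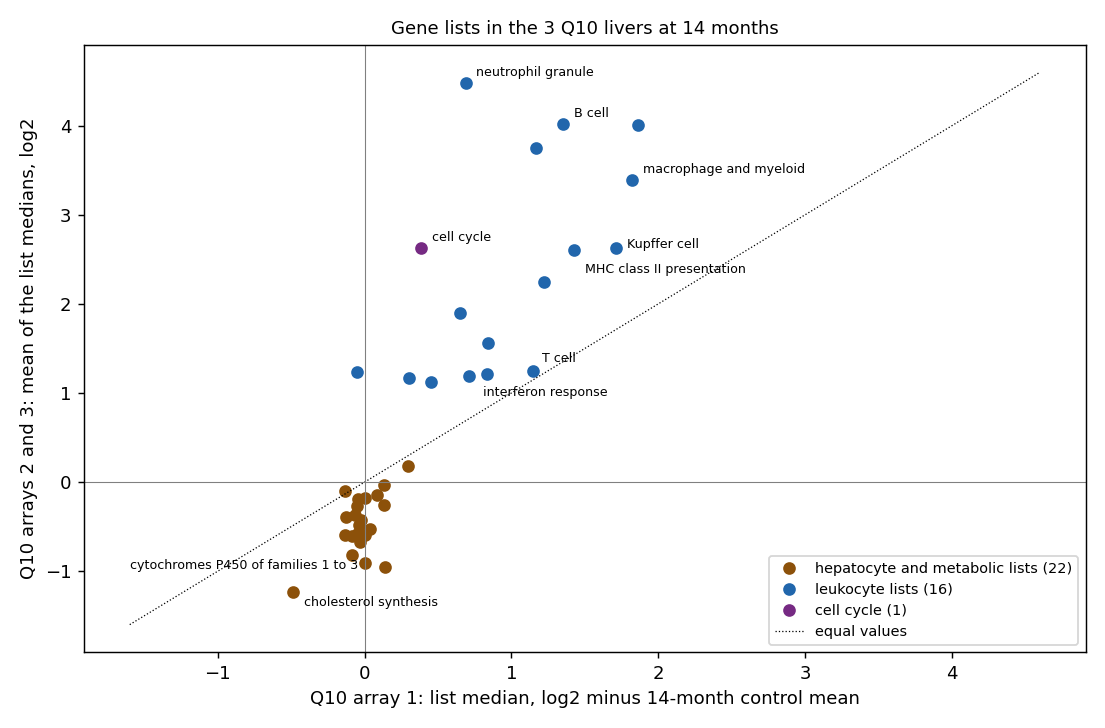
Gene lists in the 3 Q10 livers at 14 months: median log2 signal minus the control mean in Q10 array 1 (horizontal axis) against the mean of the same medians in Q10 arrays 2 and 3 (vertical axis), with 1 point per list and a dotted line of equal values. Most leukocyte lists lie above the line and right of 0, with macrophages at 1.82 in array 1, and most hepatocyte and metabolic lists lie near 0 in array 1 and under 0 in arrays 2 and 3.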

How the data were processed

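The deposited table holds 1 linear intensity per probe set and array, made by the authors with GCOS, per the submitters' processing notes. No version or setting of GCOS is given in the sources used here. Of 45101 probe sets 64 controls were left out. The 18 liver arrays were quantile normalised, 1 was added, log2 was taken and probe sets with a mean above the 40th percentile were tested, 27022 in all, with limma 3.58.1 in R 4.3.3 (6 group means, eBayes with an intensity trend, Benjamini-Hochberg adjustment over all probe sets). Steps were tested on simulated data. The number of arrays limits the precision, and exact permutation of 3 against 3 cannot give a p under 0.1.

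Symbols came from the platform table (34945 probe sets with 1 symbol, 932 with several, 9160 with none), and 34741 were matched to RefSeq by Entrez number. A gene is its brightest tested probe set. The 48 lists, the settings and the named genes were chosen with earlier results of these data known. Named are the 12 genes with the greatest rise and the 12 with the greatest fall among those called without overlap, up to 4 members of each list by p, and a fixed set; exceptions are marked. Some genes of that set are not reported here. The labels number the replicates but do not say that a number pairs mice, and QH2 and Q10 arrays of the same number had correlations of 0.03, 0.03 and -0.01 in their deviations from the group means, so the main test has no block. The highest correlation between 2 liver arrays was 0.935, and no 2 arrays held the same values. Alternatives were the values as deposited, a common 75th percentile, an offset of 16, other filters, the compared arrays alone, no trend, array weights, the Actb ratio as covariate, a replicate block and left-out arrays. Promoter sequences are RefSeq's (GRCm38.p6).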

Additional observations from a re-analysis of the deposited data

Results flagged for a closer look

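For these genes the difference between QH2 and Q10 itself differed between 14 and 6 months by limma's test of that difference (log2, 14 minus 6 months). Mup10 changed by 4.53 (adjusted p = 0.0462) and Slc26a4 by 3.38 (adjusted p = 0.0198), both higher on QH2 at 14 months. Cxcl13 changed by -5.45 (adjusted p = 0.0411), Marco by -5.92 (adjusted p = 0.0239), BC023105 by -3.78 (adjusted p = 0.0303) and Cd24a by -4.61 (adjusted p = 0.0322), each lower on QH2 at 14 months. Ptprc changed by -2.67 (adjusted p = 0.0482), Adgre1 by -1.91 (adjusted p = 0.0322) and Mki67 by -4.0 (adjusted p = 0.0357). Their log2 differences at 6 months ran between -0.83 (Cxcl13) and 0.33 (Cd24a). Without Q10 arrays 2 and 3, 51 probe sets were called in this test, against 546 with them.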

How the results depend on the processing

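The 2632 calls between QH2 and Q10 at 14 months came to 1067 with the signals as deposited, 4310 with the common 75th percentile, 0 on the 6 arrays alone, 1534 without the intensity trend, 11862 with array weights, a fit that did not converge, 12 without Q10 arrays 2 and 3 and 0 with the covariate of the Actb ratio; leaving out 1 array gave 766 to 5905. An offset of 16 and both other filters kept the count within 1.5 times. Of the 2632 probe sets 873 were among the 1067. The 546 calls of the test between 14 and 6 months came to 39 with the signals as deposited, 8 on the compared arrays alone, 18 without the trend, 5036 with array weights, 1 with the Actb ratio and 51 without Q10 arrays 2 and 3, and to 33 to 3372 without 1 array. A replicate block gave 2761 calls at 14 months and 521 in the test between durations, though the numbers are not known to pair mice, and all 156 called genes among the 212 named ones kept their call. Of these 156, 90 kept it with the signals as deposited, 143 with the common percentile, 72 without Q10 array 2, 96 without Q10 array 3 and 5 without both. With the common percentile Npc2 turned to 0.079, Cp to 0.078 and C1s1 to 0.041. With the Actb ratio Slc27a5 turned to -0.046, Acaa1a to -0.102, Cyp2b10 to -0.078, Orm3 to -0.145, Prodh2 to -0.044, Ms4a1 to 0.026, Mzb1 to 0.17 and Dcn to 0.20. The causes were not tested. With 3 livers per diet, diet cannot be told apart from cage or the Actb ratio, and signals near 0 limit the folds of dim genes.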

Other observations

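In kidney and heart, too, the pan-leukocyte and B cell lists were highest in the Q10 arrays numbered 2 and 3 at 14 months, although the labels do not tie arrays of different tissues to 1 animal by their number, and the margin over control was narrow for array 3 in kidney. The neutrophil granule list was an exception. In kidney Q10 arrays 2 and 3 had 0.61 and 1.69, with QH2 arrays 1 and 2 at 0.79 and 0.95. In heart those Q10 arrays had 0.89 and 0.53, with QH2 array 1 at 0.68. The pan-leukocyte list's median log2 signal in kidney, relative to the kidney control mean, was -1.38, -0.81 and -0.75 on QH2, -0.99, 2.29 and 0.88 on Q10 and 0.14, -0.91 and 0.66 on control diet. In heart it was 0.40, 0.23 and 0.01 on QH2, 0.32, 1.77 and 2.13 on Q10 and 0.09, -0.12 and -0.05 on control diet. The B cell list in heart had 0.57, 0.92 and 0.25 on QH2, 0.45, 3.37 and 3.56 on Q10 and 0.10, -0.06 and 0.05 on control diet. Brain did not share this for array 3: its pan-leukocyte list had -0.14, 0.17 and 0.01 on QH2, 0.05, 0.45 and 0.09 on Q10 and -0.03, 0.07 and -0.05 on control diet. The cholesterol synthesis list in kidney had 0.24, 0.05 and 0.16 on QH2, 0.06, -0.11 and -0.06 on Q10 and -0.02, -0.05 and 0.06 on control diet. No test was run on these values.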
